A study of Drosophila melanogaster with 20 samples.

Results

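The genes of the unfolded protein response were followed in nascent RNA of Kc167 cells after treatment with dsRNA against GAF or Mi-2. This line is derived from *Drosophila* embryos. The genes were taken by their FlyBase symbols, and 8 of 9 had a row among the 17659 genes of the count table. These are *Ire1*, *PEK*, *Atf6*, *Xbp1*, *crc*, *Hsc70-3*, *Gp93* and *Thor*. *Pdi*, which encodes a protein disulfide isomerase, has an identifier in the current annotation (FBgn0286818) that is absent from the rows, and it is not described here. All 8 genes passed the filter on low counts, which kept 7826 genes. Between the knockdowns, the genes of the chaperones Hsc70-3 and Gp93 were higher in the GAF knockdown, by 1.31-fold and 1.44-fold, and *crc*, the gene of fly ATF4, was lower there, at 82.9% of its level in the Mi-2 knockdown. The genes of the sensors Ire1, PEK and Atf6 and of the transcription factor Xbp1 did not pass the test.

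The unfolded protein response is the reaction of a cell to misfolded protein in the endoplasmic reticulum (ER). The sensors Ire1, PEK and Atf6 span the ER membrane. Active Ire1 cuts the *Xbp1* mRNA in the cytoplasm, and the spliced form encodes the active transcription factor. PEK phosphorylates the initiation factor eIF2α, which lowers protein synthesis as a whole while allowing translation of *crc*. Atf6 is released from the membrane by proteolysis and enters the nucleus. The factors act on genes of ER chaperones and folding enzymes, and *Thor*, which encodes the translation inhibitor 4E-BP, is a known target of ATF4 in flies. Splicing of *Xbp1*, phosphorylation, translation and proteolysis are not seen in counts of nascent RNA over genes. The values below therefore describe nascent RNA of the genes and not activity of the pathway.

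In neuRNA-seq, transcripts made during a labelling period (here 0.2 mM EU, a modified uridine, over 1 h) are isolated and sequenced. The libraries used were GAF knockdown replicates 2 and 3 and Mi-2 knockdown replicates 1 and 2, all from the same female embryonic line at 3966515 to 12563919 counts. GAF knockdown replicate 1 and the mock libraries of the labels had no column of counts. GAF (GAGA factor, the product of *Trl*) binds GA-rich DNA at promoters, and Mi-2 is a chromatin remodeler of the CHD family. Both groups received dsRNA, and no library without dsRNA entered a comparison, so a difference cannot be assigned to either knockdown. The labels do not say whether the libraries came from separate cultures, and the p-values measure only the spread between these libraries.

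The targeted genes and the identity of the cells were examined first. Levels of the GAF and Mi-2 proteins were not examined here, so knockdown and depleted name the dsRNA given and not a measured loss. *Mi-2* had 431 and 436 CPM (counts relative to the TMM-scaled size of the library) in the GAF knockdown and 300 and 311 CPM in the Mi-2 knockdown, and was called (adjusted p = 0.0109, edgeR). *Trl* had 6.97 and 10.9 CPM in the GAF knockdown and 13.4 and 12.3 CPM in the Mi-2 knockdown, and was not called (adjusted p = 0.566, edgeR), with 2557 bp of its body free of other genes on its strand. All 8 hemocyte markers had counts in at least 1 library, led by *srp* and *Hml*. *He* had only 6.81 to 9.03 CPM, and *NimC1* had at most 6 counts in a library and did not pass the filter. The summed level of the 8 was 4513 to 4760 CPM in the GAF knockdown and 3912 to 4207 CPM in the Mi-2 knockdown. Of the 7 hemocyte markers tested, *Pxn*, *Col4a1* and *vkg* were called higher in the GAF knockdown, where 3.4% of all genes tested were called higher. The part of these markers in the differences below was not tested. Of the 7 markers of other cell types with a row, *Fbp1* and *Lsp1alpha* of the fat body were at 0 in every library, *Mef2* had 369 to 405 CPM and *elav* had 49.8 to 89.0 CPM. Their summed level was 478 and 428 CPM in the GAF knockdown and 486 CPM in both Mi-2 knockdown libraries.

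Levels of nascent RNA in these cells can be compared between the genes of the response only per length. Levels are therefore given first as CPM per kb of gene body, over 4 libraries. On the same strand, no other counted gene with a dm6 position covers any of the 8 gene bodies. No read was lost to such a neighbour on that account. Positions were found for 17464 of the 17659 identifiers. *Xbp1* had the highest level, 440 to 475 CPM per kb, above 99.8% of the genes tested. *Hsc70-3* followed with 206 to 288 CPM per kb and *Gp93* with 111 to 168 CPM per kb. Next came *crc* with 67.7 to 83.6 CPM per kb, *PEK* with 63.3 to 74.5 and *Ire1* with 49.5 to 55.0. *Atf6* had 25.4 to 33.9 CPM per kb and *Thor* 2.14 to 8.12 CPM per kb, above 75.2% and 26.1% of the genes tested. The order was the same in each of the 4 libraries, although the ranges of *crc* and *PEK* overlap. The sensors thus lay below *Xbp1* and the chaperone genes in every library. Exons make up between 39.5% (*crc*) and 97.1% (*Xbp1*) of the gene bodies, and the part of this difference in the order was not tested. Together the 8 genes took 0.434% to 0.488% of the counts of a library.

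**Figure D1:**
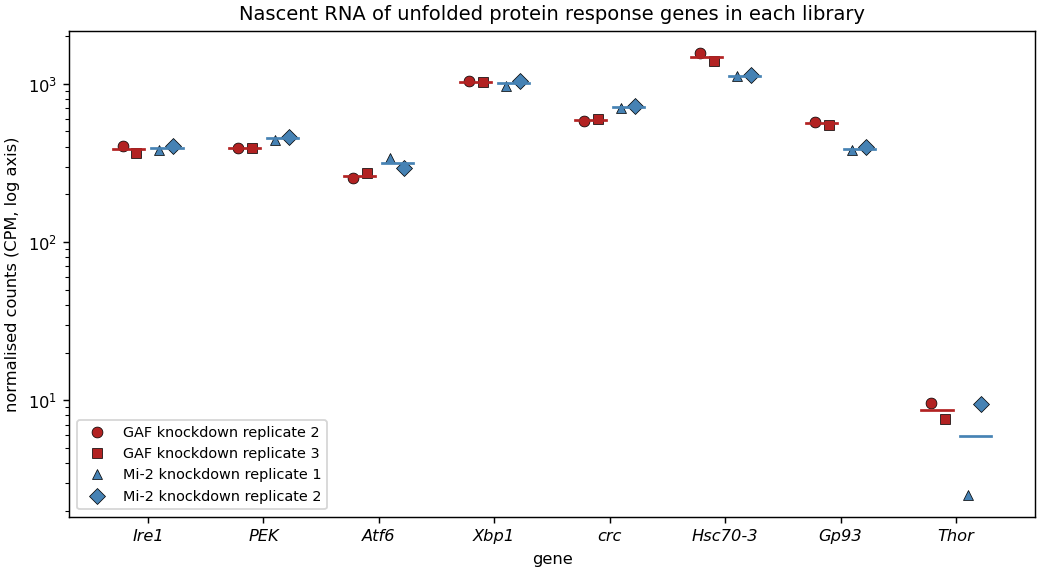
Normalised counts (CPM, log axis) of the 8 unfolded protein response genes in each library, with circles and squares for GAF knockdown replicates 2 and 3, triangles and diamonds for Mi-2 knockdown replicates 1 and 2, and horizontal lines for the group means. The GAF knockdown points lie above the Mi-2 knockdown points for *Hsc70-3* and *Gp93* and below them for *PEK*, *Atf6* and *crc*, and *Thor* lies between 2.52 and 9.57 CPM.

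The knockdowns were then compared, which asks whether nascent RNA of each gene differed between cells given GAF dsRNA and cells given Mi-2 dsRNA. Log2 fold changes are positive where a gene was higher with GAF depleted than with Mi-2 depleted, and are given with the standard error (SE) and the p-value of edgeR's quasi-likelihood test adjusted over 7826 genes, and an adjusted p under 0.1 is taken as a call. Of the 8 genes, 2 were called higher and 1 lower, where 3.4% of all genes tested were called higher and 6.06% lower, or 9.46% in either direction. Their median log2 fold change was 1.7e-05, against -0.0024 over all genes tested. The libraries of the groups did not overlap for 2 genes above and 3 genes below, where 24.8% and 26% of all genes tested did so, or 50.8% in either direction. Differences in the number of cells of a kind and in RNA per cell cannot be told apart in such pooled samples.

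Among the sensors, Ire1 is the kinase and endoribonuclease that processes *Xbp1* mRNA. *Ire1* (FBgn0261984, chromosome 3R of dm6, 19853908 to 19861291, minus strand) was covered by 2495 counts in replicate 2 and 4645 in replicate 3 of the GAF knockdown, or 405 and 365 CPM. It was covered by 1513 counts in replicate 1 and 2248 in replicate 2 of the Mi-2 knockdown, or 382 and 406 CPM, and libraries keep this order below. The groups overlap, with the lowest library in the GAF knockdown and the highest in the Mi-2 knockdown. Between the groups *Ire1* differed by a log2 fold change of -0.03 (SE 0.0984, adjusted p = 0.892, edgeR), with a 95% interval from -0.25 to 0.19.

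PEK is the eIF2α kinase of the ER membrane. *PEK* (FBgn0037327, 3R, 5458563 to 5464753, minus strand) had 2416 and 4986 counts in the GAF knockdown, which is 392 CPM in both libraries. In the Mi-2 knockdown it had 1762 and 2555 counts, or 445 and 461 CPM. Both Mi-2 knockdown libraries lay above both GAF knockdown libraries. Its log2 fold change of -0.21 (SE 0.0892, adjusted p = 0.225, edgeR) did not pass, with a 95% interval from -0.41 to -0.01.

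Atf6 is the sensor that becomes a transcription factor after cleavage. *Atf6* (FBgn0033010, 2R, 5144733 to 5154756, plus strand) had 1568 and 3453 counts in the GAF knockdown, or 254 and 272 CPM. It had 1348 and 1638 counts in the Mi-2 knockdown, or 340 and 296 CPM. The groups did not overlap, and Mi-2 knockdown replicate 1 was the highest library. The log2 fold change of -0.27 (SE 0.111, adjusted p = 0.201, edgeR) did not pass, with a 95% interval from -0.52 to -0.03. It rests in part on single libraries, since without Mi-2 knockdown replicate 2 it was -0.36 and was called (adjusted p = 0.0181, edgeR), and without Mi-2 knockdown replicate 1 it was -0.17.

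Of the transcription factors, *Xbp1* (FBgn0021872, 2R, 21143545 to 21145750, plus strand) is the target of Ire1's cleavage. It had 6452 and 12998 counts in the GAF knockdown, or 1047 and 1022 CPM, and 3847 and 5810 counts in the Mi-2 knockdown, or 971 and 1049 CPM. The groups overlap, with both GAF knockdown values inside the range of the Mi-2 knockdown. For *Xbp1* the log2 fold change was 0.03 (SE 0.0755, adjusted p = 0.857, edgeR). Its 95% interval, from -0.13 to 0.20, was the narrowest of the 8 genes and does not reach the log2 fold changes of *Hsc70-3* or *Gp93*.

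*crc* encodes the fly ATF4, a bZIP transcription factor of amino acid and redox metabolism whose translation rises when eIF2α is phosphorylated. *crc* (FBgn0000370, 2L, 21310866 to 21319527, plus strand) had 3617 and 7598 counts in the GAF knockdown, or 587 and 597 CPM. In the Mi-2 knockdown it had 2792 and 4011 counts, or 705 and 724 CPM. The libraries within a group lay within 0.04 of each other on the log2 scale, and the groups did not overlap. *crc* was called lower in the GAF knockdown, with a log2 fold change of -0.27 (SE 0.0793, adjusted p = 0.0804, edgeR) and a 95% interval from -0.45 to -0.09. The call was lost without GAF knockdown replicate 2 (-0.25, adjusted p = 0.572), without GAF knockdown replicate 3 (-0.29, adjusted p = 0.344) and with no filter on low counts (-0.25, adjusted p = 0.122, all by edgeR). With 1 library of a group left, here or below, that library is assumed to vary like those of the other group.

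**Figure D2:**
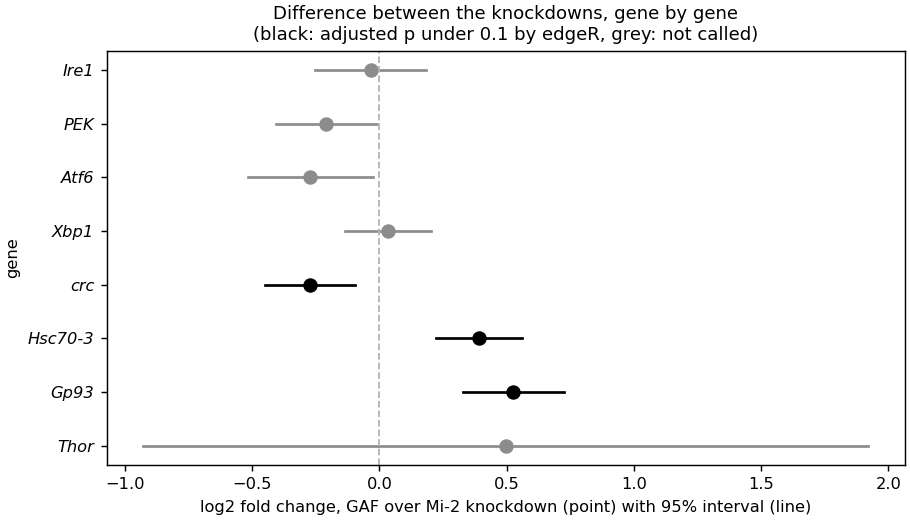
Log2 fold change (GAF against Mi-2 knockdown) for each unfolded protein response gene (points) with its 95% interval (lines), in black for genes with an adjusted p under 0.1 by edgeR and in grey for the others. *Hsc70-3* (0.39) and *Gp93* (0.53) lie to the right of 0, *crc* (-0.27) to the left, and the interval of *Thor* runs from -0.93 to 1.92.

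Among the target genes, Hsc70-3 is the fly BiP, the Hsp70 of the ER lumen that holds the sensors inactive while it is bound to them. *Hsc70-3* (FBgn0001218, X, 11801696 to 11807117, minus strand) had 9625 and 17830 counts in the GAF knockdown, or 1561 and 1402 CPM. It had 4427 and 6313 counts in the Mi-2 knockdown, or 1117 and 1140 CPM. Both GAF knockdown libraries lay above both Mi-2 knockdown libraries, and replicate 2 was the highest. *Hsc70-3* was called higher in the GAF knockdown, with a log2 fold change of 0.39 (SE 0.0762, adjusted p = 0.0145, edgeR), with a 95% interval from 0.22 to 0.56. The gap between the GAF knockdown libraries was 0.16 on the log2 scale and that between the Mi-2 knockdown libraries 0.03. Without GAF knockdown replicate 2 the value was 0.32 and no longer called (adjusted p = 0.262, edgeR), and without the other libraries in turn it stayed called. *Hsc70-3* took 32.3% and 30.4% of the counts of the 8 genes in the GAF knockdown and 25.7% and 25.4% in the Mi-2 knockdown.

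Gp93 is the fly GRP94, the Hsp90 of the ER lumen, which folds secreted and membrane proteins. *Gp93* (FBgn0039562, 3R, 27948711 to 27952151, plus strand) had 3564 and 6958 counts in the GAF knockdown, or 578 and 547 CPM. It had 1507 and 2217 counts in the Mi-2 knockdown, or 380 and 400 CPM. The groups did not overlap, and libraries within a group lay within 0.08 of each other on the log2 scale. *Gp93* had the largest called log2 fold change of the 8 genes, 0.53 (SE 0.0890, adjusted p = 0.0073, edgeR), with a 95% interval from 0.33 to 0.73. Without GAF knockdown replicate 2 it was 0.49 (adjusted p = 0.143) and without GAF knockdown replicate 3 it was 0.56 (adjusted p = 0.112, both by edgeR), past the threshold in neither case.

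*Thor* (FBgn0261560, 2L, 3478434 to 3479612, plus strand) had the fewest reads, 59 and 97 in the GAF knockdown and 10 and 52 in the Mi-2 knockdown. These are 9.57 and 7.63 CPM against 2.52 and 9.39 CPM. The groups overlap, and Mi-2 knockdown replicate 1, the library with the fewest counts, stands apart at the low end. The log2 fold change of 0.50 (SE 0.640, adjusted p = 0.731, edgeR) turned to -0.13 without that library, and a difference was not detectable at this depth.

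Ratios between genes within a library do not depend on how libraries are scaled. These pairs were chosen after the values had been seen, and the ratios were not tested. *Hsc70-3* had 3.98 and 3.58 times the CPM of *PEK* in the GAF knockdown and 2.51 and 2.47 times in the Mi-2 knockdown. *Gp93* had 0.985 and 0.916 times the CPM of *crc* in the GAF knockdown and 0.540 and 0.553 times in the Mi-2 knockdown. The ratio of *Hsc70-3* to *Gp93* was closer between the knockdowns, 2.70 and 2.56 against 2.94 and 2.85. The ratio of *Xbp1* to *crc* was 1.78 and 1.71 against 1.38 and 1.45. In each of these pairs the groups did not overlap. For *Hsc70-3* to *PEK* and *Gp93* to *crc* this had to follow, since those genes already separated the groups in opposite directions. How often other pairs of genes do so was not examined.

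**Figure D3:**
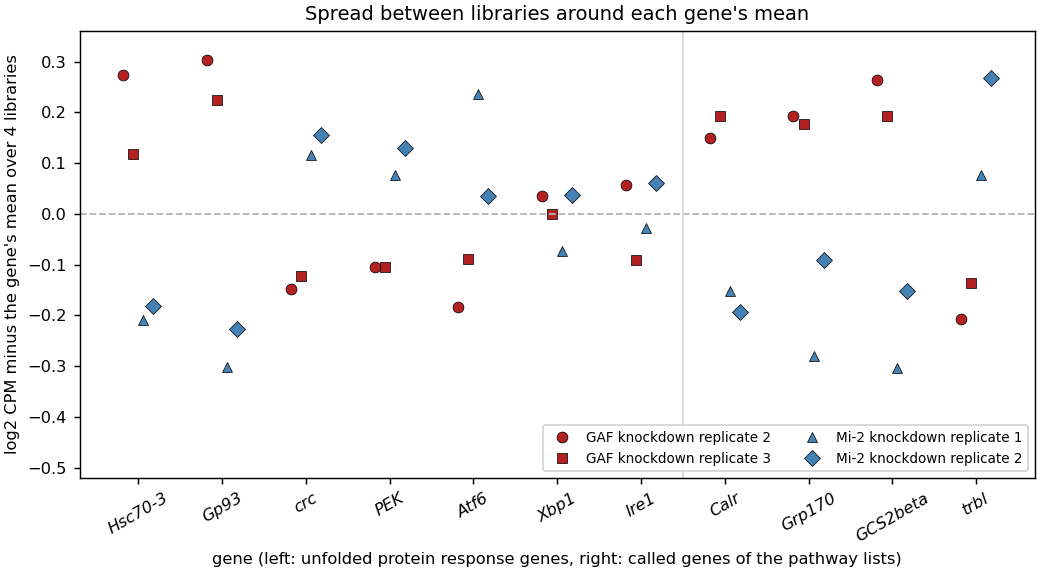
Log2 CPM of each gene in each library minus its mean over the 4 libraries, for 7 unfolded protein response genes (left of the line) and the 4 called genes of the pathway lists (right), with symbols for libraries as in the key. *Gp93* runs from -0.30 to 0.30 and *Xbp1* only from -0.07 to 0.04.

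Other genes of the pathway were read from 6 lists with 59 symbols, of which 57 had a row and 53 were tested. Over these lists 3 genes were called higher and 1 lower by edgeR, and the median log2 fold change was 0.08. Of all genes tested, 3.4% and 6.06% were called in these directions, and 698 and 873 of the 7826 had an unadjusted p under 0.05. DESeq2, which was given 11399 genes, called 294 higher and 494 lower. *TER94* has no row under its current identifier, *Psat* matched no name, and *Cnx14D*, *wbl*, *TRAM* and *AsnS* had 0 counts in every library. Other genes on the same strand cover the whole of *TRAM* and *AsnS*, so their 0 counts say nothing of their transcription.

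The list of ER chaperones and folding enzymes, the group nearest to *Hsc70-3* and *Gp93*, held all 3 genes called higher. Of its 14 tested genes 3 were called higher and 0 lower (at an unadjusted p under 0.05 also 3 and 0, and 2 and 0 by DESeq2), and the median was 0.09. Of all genes tested, 3.4% were called higher by edgeR. *Calr*, which encodes the calcium-binding lectin chaperone calreticulin, reached 559 ± 12.0 CPM with GAF depleted (SD, n = 2) and 441 ± 9.02 CPM with Mi-2 depleted (SD, n = 2). Its log2 fold change was 0.34 (SE 0.0853, adjusted p = 0.0439, edgeR). *Grp170*, the gene of a large Hsp70-like chaperone that exchanges nucleotide on BiP, had a log2 fold change of 0.37 (SE 0.108, adjusted p = 0.083, edgeR). *GCS2beta*, which encodes the β subunit of glucosidase II, had 0.45 (SE 0.140, adjusted p = 0.0974, edgeR). The other lectin chaperone, calnexin (*Cnx99A*), had 0.02 (adjusted p = 0.945, edgeR), and the disulfide isomerase gene *ERp60* had 0.10 (adjusted p = 0.645, edgeR), both named after their values had been seen. Without either GAF knockdown library no gene of the 6 lists was called higher. Without Mi-2 knockdown replicate 2 more genes of the lists were called higher, as were more of all genes tested. *Grp170* also lost its call without Mi-2 knockdown replicate 1 (adjusted p = 0.128, edgeR) and with the trend on gene length removed (adjusted p = 0.123, edgeR), and *GCS2beta* lost it in both cases (adjusted p = 0.159 and 0.124, edgeR), with upper-quartile normalization (adjusted p = 0.108, edgeR) and with DESeq2 (adjusted p = 0.121).

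In ER-associated degradation, which returns misfolded proteins to the cytosol for the proteasome, 0 of 11 tested genes were called by edgeR, 0 at an unadjusted p under 0.05 and 0 by DESeq2, with a median of 0.04. Those with the most counts were *Npl4*, a cofactor of the p97 segregase (log2 fold change 0.04, adjusted p = 0.891), and *Edem2*, a mannosidase-like factor (0.26, adjusted p = 0.275, edgeR). In translocation and signal peptide cleavage 0 of 10 were called by edgeR and 0 by DESeq2, and 1 had an unadjusted p under 0.05. That gene was *Sec63*, a translocon partner that recruits BiP, with 0.41 (adjusted p = 0.145, edgeR), and the channel subunit *Sec61alpha* had 0.26 (adjusted p = 0.298, edgeR). Without Mi-2 knockdown replicate 2 both passed, *Sec63* at 0.48 (adjusted p = 0.0568) and *Sec61alpha* at 0.42 (adjusted p = 0.0347, edgeR), in a fit that called 998 of all genes higher against 266 with every library. Without Mi-2 knockdown replicate 1 *Sec61alpha* was at 0.14 (adjusted p = 0.677, edgeR).

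In the branch of the eIF2α kinases, 0 of 8 tested genes were called by edgeR, while 3 had an unadjusted p under 0.05 and 1, *eIF2beta*, was called higher by DESeq2. These 3 were the subunits of eIF2, the factor that PEK acts on, and they are named because their values had been seen. The log2 fold change was 0.39 for *eIF2alpha* (SE 0.132, adjusted p = 0.125), 0.40 for *eIF2beta* (SE 0.138, adjusted p = 0.130) and 0.37 for *eIF2gamma* (SE 0.146, adjusted p = 0.188, edgeR). For each of them both GAF knockdown libraries lay above both Mi-2 knockdown libraries, as for 24.8% of all genes tested. With no filter on low counts all 3 passed, with adjusted p-values of 0.0456, 0.0164 and 0.0856 by edgeR. Without Mi-2 knockdown replicate 1, *eIF2alpha* was at 0.47, *eIF2beta* at 0.25 and *eIF2gamma* at 0.54. Without Mi-2 knockdown replicate 2, *eIF2alpha* was at 0.33, *eIF2beta* at 0.61 and *eIF2gamma* at 0.23. Without either GAF knockdown library none of the 3 was called by edgeR (adjusted p from 0.321 to 0.716). *Su(var)3-9* covers 64.0% of *eIF2gamma* on the same strand. The stress-induced transcription factor genes *Xrp1*, with 4381 ± 208 CPM when GAF was depleted (SD, n = 2) and 4150 ± 463 CPM when Mi-2 was depleted (SD, n = 2), and *Atf3* had log2 fold changes of 0.08 (adjusted p = 0.631) and 0.02 (adjusted p = 0.932, edgeR). Without Mi-2 knockdown replicate 2 *Xrp1* was at 0.21, and without Mi-2 knockdown replicate 1 it was at -0.03.

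The genes listed as targets of ATF4 had a median of -0.31 over 5 tested genes, with 2 above 0 and 3 below. By edgeR and by DESeq2 0 were called higher and 1 lower, and 1 and 1 had an unadjusted p under 0.05. The higher of these was *Sesn*, at 0.27 (adjusted p = 0.180, edgeR), named after its value had been seen. The gene called lower was *trbl*, which encodes a Tribbles pseudokinase. Its level was 289 ± 10.3 CPM with GAF depleted (SD, n = 2) and 368 ± 34.4 CPM with Mi-2 depleted (SD, n = 2), a log2 fold change of -0.35 (SE 0.105, adjusted p = 0.0903, edgeR). The call was lost without GAF knockdown replicate 2 (adjusted p = 0.604), GAF knockdown replicate 3 (adjusted p = 0.320) or Mi-2 knockdown replicate 2 (adjusted p = 0.158, all by edgeR). Among the genes that accompany Atf6 and Ire1, 0 of 5 were called by edgeR and 0 by DESeq2, and 1 had an unadjusted p under 0.05. That gene was *SPARC*, a matrix protein whose mRNA is cut by Ire1 in fly cells (0.34, adjusted p = 0.214), and *BI-1*, an ER membrane protein related to Bax inhibitor, had -0.11 (adjusted p = 0.789, edgeR). *SPARC* passed with no filter on low counts (0.36, adjusted p = 0.078, edgeR). It was at 0.37 without Mi-2 knockdown replicate 2 and at 0.15 without GAF knockdown replicate 2.

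**Figure D4:**
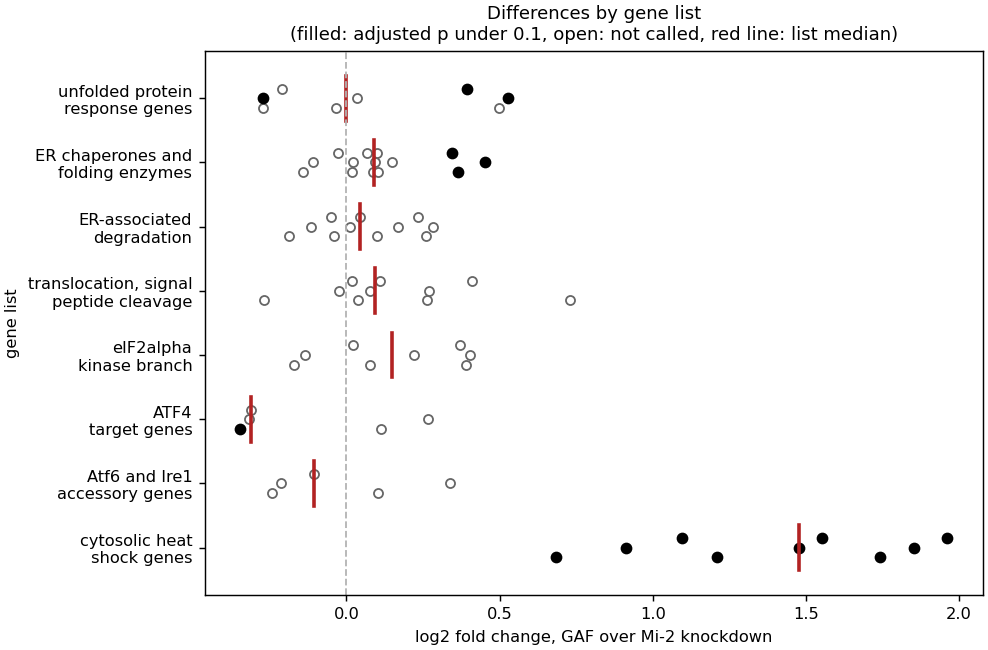
Log2 fold change (GAF against Mi-2 knockdown) for each tested gene of the lists, filled where the adjusted p by edgeR was under 0.1 and open elsewhere, with the list median as a red line. The 9 listed cytosolic heat shock genes have a median of 1.48 and lie to the right of every gene of the other lists except *Spase12* (0.73), whose value is beyond that of *Hsp110* (0.68).

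A list of 9 cytosolic heat shock genes was set beside *Hsc70-3* and *Gp93*. It was chosen with the values known, so its count of calls is not a test. All 9 were called higher in the GAF knockdown, against 3.4% of all genes tested, with log2 fold changes between 0.68 (*Hsp110*) and 1.96 (*Hsp68*). This does not extend to every heat shock gene, since *Hsp67Ba*, which is not on the list, had 0.12 (adjusted p = 0.747, edgeR). *Hsp110* lost its call without GAF knockdown replicate 2 (adjusted p = 0.146, edgeR), and each of the other 8 kept it without any 1 library. The cytosolic relatives of the ER chaperones were *Hsc70-4* with 0.91 (adjusted p = 4.3e-04, edgeR) and *Hsp83* with 1.09 (adjusted p = 2.6e-04, edgeR). Summed over the list, the level was 11927 and 9094 CPM in GAF knockdown replicates 2 and 3 and 4646 and 4403 CPM in the Mi-2 knockdown libraries. All 9 were higher in replicate 2 of the GAF knockdown than in its replicate 3, as were *Hsc70-3* and *Gp93*, 9 of the 14 tested ER chaperone and folding genes and 3834 of the 7826 genes tested. *Calr* was lower in replicate 2 (551 CPM) than in replicate 3 (567 CPM). The part of the heat shock genes in the differences of the ER chaperone genes was not tested.

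**Figure D5:**
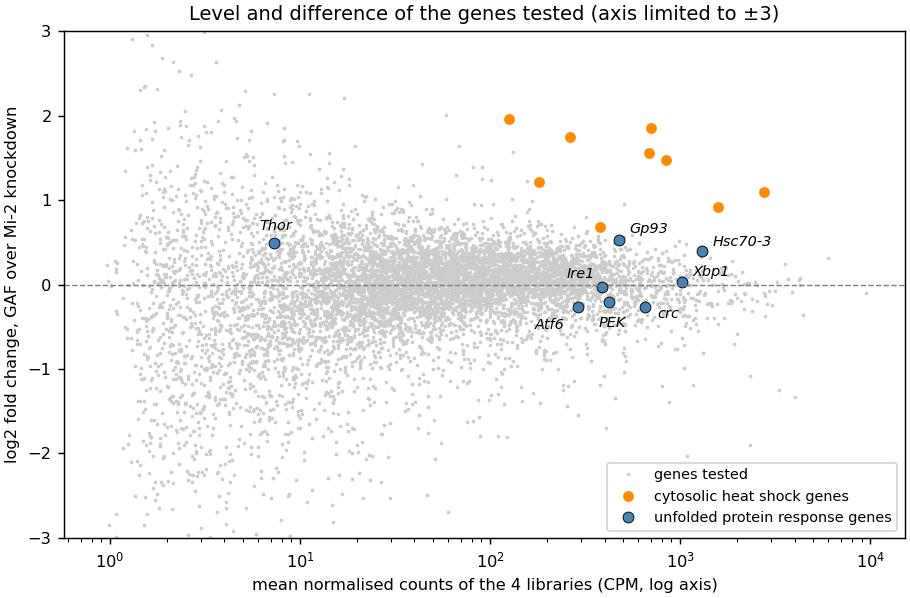
Mean normalised counts of the 4 libraries (CPM, log axis) against the log2 fold change (GAF against Mi-2 knockdown) for the 7826 genes tested (grey), with the unfolded protein response genes in blue and the cytosolic heat shock genes in orange, and 65 genes beyond the limits of ±3 not drawn. The 9 listed heat shock genes lie above the unfolded protein response genes, whose values run from -0.27 to 0.53.

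The profile of *Hsc70-3* over the 4 libraries was also compared with the 6175 genes of at least 10 CPM, by the root mean square difference of centred log2 CPM. The nearest were FBgn0003732, an identifier that the name tables used here do not pair with a gene (0.012), the protein O-fucosyltransferase gene *O-fut1* (0.013) and the ribosomal protein gene *RpL8* (0.019). Their log2 fold changes were 0.40 (adjusted p = 0.0262), 0.38 (adjusted p = 0.278) and 0.41 (adjusted p = 0.0445, edgeR). Values near that of *Hsc70-3* had to follow, since the genes were picked by their likeness to it in these same libraries. Without GAF knockdown replicate 2 or 3 neither FBgn0003732 nor *RpL8* was called. This likeness rests on 4 libraries.

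The surroundings of the called genes were examined as well. Of the 4 nearest tested genes around *Hsc70-3*, 1 was called, *rudhira*, and its log2 fold change of -0.49 (adjusted p = 0.0873, edgeR) was opposite in sign. Of the 4 around *crc*, 1 was called, *Mondo*, at -0.38 (adjusted p = 0.0821, edgeR), with the sign of *crc*. The 4 around *Gp93* had values from -1.06 to 0.28, and none was called by edgeR. Around each of the other genes of the response 0 of 4 were called, where 9.46% of all genes tested were called in either direction.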

How the data were processed

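The authors deposited raw counts per gene for neuRNA-seq libraries. According to the study's methods, which do not name these libraries, reads of 50 bp were trimmed (cutadapt 1.10), aligned to dm6 (HISAT2 2.0.4) and counted over whole gene bodies on the sense strand (featureCounts 1.5.0-p3). The table has 10 columns, of which 4 match labelled samples. The other 6 (3 named mock, 3 Dcr-2 knockdown) match none and were not used. A second table was identical.

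Genes were filtered with filterByExpr, scaled by TMM and tested with edgeR 4.0.16 (quasi-likelihood, R 4.3.3), with DESeq2 1.42.0 as an alternative. Adjustment of p-values over all genes tested followed Benjamini and Hochberg. The SE is the log2 fold change over the square root of F, and 95% intervals use the degrees of freedom of that test. A count of 0 allows up to 3 counts, or 0.236 to 0.757 CPM, for counting error only. Exact permutation over 2 against 2 libraries cannot go below p = 0.333, and none is given. The scripts were checked on simulated data, where recovery was required only of differences larger than those of the unfolded protein response genes. Symbols and dm6 positions are from Ensembl release 115 (17463 of 17659 identifiers named). Libraries of a group differed by more than counting noise (chi-square per degree of freedom 9.81 and 9.88).

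Genes, lists and tests were chosen with earlier results of these data known. Named are the 8 genes, each list's called genes or otherwise its 2 with most CPM, and 3 genes nearest to *Hsc70-3*. The motif search planned for promoters was not run, as no sequence was used here.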

Additional observations from a re-analysis of the deposited data

How the results depend on the processing

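No paired analysis was possible because the knockdowns share only replicate number 2. Over all genes, 266 were called higher in the GAF knockdown and 474 lower. Without the filter on low counts 494 were higher, and a threshold of 0.05 on the adjusted p left 128. Leaving out each library in turn gave 32 to 998 higher and 154 to 818 lower. The fewest calls came without a GAF knockdown library (32 and 34 higher, 162 and 154 lower, without replicates 2 and 3), and the most without Mi-2 knockdown replicate 2. Of the unfolded protein response genes, 2 were higher and 1 lower. *crc* lost its call with no filter and at an adjusted p under 0.05, leaving 0 lower. With a library left out, 0 to 2 were higher and 0 to 2 lower. Of the pathway lists, 3 genes were higher and 1 lower, against 5 higher with library size alone, 7 with no filter, and 1 higher and 0 lower with the threshold at 0.05. With a library left out, 0 to 10 were higher and 0 to 1 lower. *Hsc70-3* stayed between 0.34 and 0.43 and *Gp93* between 0.47 and 0.56 under the 7 settings that kept every library, and both stayed called. Values near 0 changed sign. *Ire1* was 6.1e-06 with library size alone and *Atf3* -0.0044 with upper-quartile normalization. With a library left out, *Xbp1* ran from -0.018 to 0.10, *Ire1* from -0.11 to 0.031, *Thor* from -0.13 to 1.77, *Npl4* from -0.038 to 0.15, *Xrp1* from -0.029 to 0.21, *Atf3* from -0.058 to 0.12 and *BI-1* from -0.23 to 0.040. Apart from the construction of stricter thresholds and fewer libraries, the cause was not tested. The levels per kb did not change with the whole gene body, since no other counted gene of the same strand with a dm6 position covers these genes. Depth limits *Thor* most, with 10 counts in Mi-2 knockdown replicate 1.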
